A study of Mus musculus with 16 samples.

Results

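The mRNAs of 9 genes of glycogen synthesis and breakdown were followed in 8 mouse tissues in the fed state and after 24 h of fasting. They were the glycogen synthases Gys1 and Gys2, the branching enzyme Gbe1, the phosphatase targeting subunits Ppp1r3b, Ppp1r3c and Ppp1r3g, and the glycogen phosphorylases Pygl, Pygm and Pygb. These genes were chosen by symbol and make up 9 of the 55385 genes in the deposited table of short-read RNA-Seq counts. Each symbol matched 1 gene, and each gene had counts in at least 1 library. The mice were male C57BL/6 animals from the Jackson Laboratory, acquired at 12 weeks of age and acclimatized for 10 to 14 days, and were either fed or fasted for 24 h before tissue collection at 10 am. Muscle, liver, white adipose tissue (WAT), brown adipose tissue (BAT), heart, spleen, kidney and lung were taken from 3 mice per group, and equal amounts were pooled into 1 library for each tissue and treatment, which gave 16 libraries. Each fasting library therefore stood against 1 fed library, with no replicate in a tissue, and the spread between mice was not measured. The methods describe 1 group of 3 fed and 1 group of 3 fasted mice as the source of all tissues, so the 8 tissues share their mice and are not independent replicates of fasting.

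Glycogen is the branched store of glucose in animal cells. Glycogen synthase extends its chains from UDP-glucose, with Gys1 as the form of muscle and most other tissues and Gys2 as the liver form, and Gbe1 makes the branch points. Glycogen phosphorylase releases glucose 1-phosphate from the chain ends, and its genes are named for the liver (Pygl), muscle (Pygm) and brain (Pygb) forms. The Ppp1r3 proteins carry protein phosphatase 1 to the glycogen particle, where it activates synthase and inactivates phosphorylase. Liver glycogen is drawn down in fasting to supply blood glucose, whereas muscle glycogen serves the muscle itself.

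Total counts ran from 14245178 in fasting BAT to 36069968 in fasting lung. Levels are given as CPM (a gene's counts per 1000000 counts of the library). In each of the 8 tissues, the marker list of its own cell type had a higher summed CPM than in any library of another tissue. Some libraries also differed in markers of other cell types. The fast skeletal muscle list (10 genes) summed to 2791 CPM in fed and 1249 CPM in fasting BAT, and the cardiomyocyte list (7 genes) to 1016 and 530 CPM in fed and fasting lung. In lung the B cell list (5 genes, 5 lower) also went from 343 to 177 CPM and Lrp2 of the kidney tubule list from 314 to 172 CPM, while the other 7 genes of that list summed to 39.4 and 34.3 CPM. In WAT, 1 gene carried each of 2 such sums: Lrp2 of the kidney tubule list went from 34.9 CPM fed to 709.6 CPM fasting while the other 7 summed to 35.6 and 40.9 CPM, and Ighm of the B cell list went from 338 to 76.3 CPM while the other 4 summed to 7.64 and 6.31 CPM. In spleen, the pancreatic acinar list (8 genes) went from 523 to 11.7 CPM, and in heart the hepatocyte list (7 genes) went from 27.8 to 106 CPM with all 7 higher. The adipocyte list (8 genes) summed to 417 and 948 CPM in heart through Fabp4 (370.0 and 831 CPM) and Lipe (42.7 and 116 CPM), while 5 of its 8 genes were lower, among them Adipoq at 0.871 and 0.262 CPM, and Lep was at 0 in both libraries. In these whole-tissue libraries, fewer cells of a type and less RNA per cell cannot be told apart.

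RefSeq promoter sequences of the GRCm38.p6 build were matched by symbol for 7 of the 9 genes, all but Gys2 and Ppp1r3b. The sequences below are the 250 bases before the RefSeq start, 5′ to 3′ on the strand of the gene. Pygl, Gbe1 and Ppp1r3c are shown because all 3 were lower in the fasting liver and BAT libraries, Ppp1r3g because it was higher in liver and BAT, and Pygm because it was the member most concentrated in muscle. Capitals mark matches, on either strand, to 9 motifs searched by their letters: the E-box CACGTG, the muscle E-box CAGCTG, the cAMP response element TGACGTCA and its 5-base part TGACG, the FoxO motif GTAAACA, the direct repeat DR1 (AGGTCA given again after 1 spacer base), the TATA motif TATAAA, the CCAAT box and the GC box GGGCGG. The 5-base part lies within the full cAMP response element.
Pygl: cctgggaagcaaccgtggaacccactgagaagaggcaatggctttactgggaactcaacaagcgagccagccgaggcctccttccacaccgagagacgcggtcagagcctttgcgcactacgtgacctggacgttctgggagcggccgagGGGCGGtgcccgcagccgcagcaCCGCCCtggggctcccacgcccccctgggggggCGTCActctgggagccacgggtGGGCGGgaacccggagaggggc
Gbe1: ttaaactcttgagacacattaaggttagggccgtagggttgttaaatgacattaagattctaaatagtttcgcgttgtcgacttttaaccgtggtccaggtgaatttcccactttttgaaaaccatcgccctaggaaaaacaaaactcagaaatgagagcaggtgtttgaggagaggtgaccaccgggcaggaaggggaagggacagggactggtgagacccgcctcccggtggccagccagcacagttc
Ppp1r3c: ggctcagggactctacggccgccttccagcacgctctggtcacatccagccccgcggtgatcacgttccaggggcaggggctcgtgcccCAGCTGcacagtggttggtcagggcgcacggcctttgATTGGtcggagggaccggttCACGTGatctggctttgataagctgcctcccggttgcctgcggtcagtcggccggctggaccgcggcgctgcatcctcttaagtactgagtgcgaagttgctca
Ppp1r3g: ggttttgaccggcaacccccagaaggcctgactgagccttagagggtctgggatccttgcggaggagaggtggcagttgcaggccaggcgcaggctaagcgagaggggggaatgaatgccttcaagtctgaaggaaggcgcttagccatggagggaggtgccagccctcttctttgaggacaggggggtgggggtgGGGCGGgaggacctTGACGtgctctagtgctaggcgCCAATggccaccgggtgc
Pygm: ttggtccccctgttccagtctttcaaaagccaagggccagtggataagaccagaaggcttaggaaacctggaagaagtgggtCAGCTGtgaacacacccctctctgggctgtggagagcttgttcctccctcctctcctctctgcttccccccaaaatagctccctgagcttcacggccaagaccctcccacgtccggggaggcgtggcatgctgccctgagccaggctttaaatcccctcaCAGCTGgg

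The Pygl promoter lies at chr12:70227684-70227933 on the minus strand, Gbe1 at chr16:70313699-70313948 on the plus strand, Ppp1r3c at chr19:36736605-36736854 on the minus strand, Ppp1r3g at chr13:35967656-35967905 on the plus strand and Pygm at chr19:6384158-6384407 on the plus strand. The RefSeq start of Pygl lies 3805 bases and that of Ppp1r3g 9067 bases inside the GENCODE gene bounds given with each gene here, so these 2 windows lie before an internal start, which for Pygl is the start of another GENCODE transcript. The RefSeq starts of Gbe1, Pygm and Ppp1r3c lie 0, 9 and 49 bases inside those bounds. Pygl held 3 GC boxes and 1 TGACG, and Ppp1r3g held 1 GC box, 1 TGACG and 1 CCAAT box. Ppp1r3c held 1 E-box, 1 muscle E-box and 1 CCAAT box, Pygm held 2 muscle E-boxes, and Gbe1 held none of the 9 motifs. Over 32536 distinct promoters of the same length, 33.0% held a GC box, 33.8% a CCAAT box, 17.9% TGACG, 13.1% a muscle E-box and 6.04% an E-box. The full cAMP response element, the FoxO motif, the direct repeat and the TATA motif had no match in the 5 sequences. A match is a description of these letters only, and no binding was measured here.

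**Figure D1:**
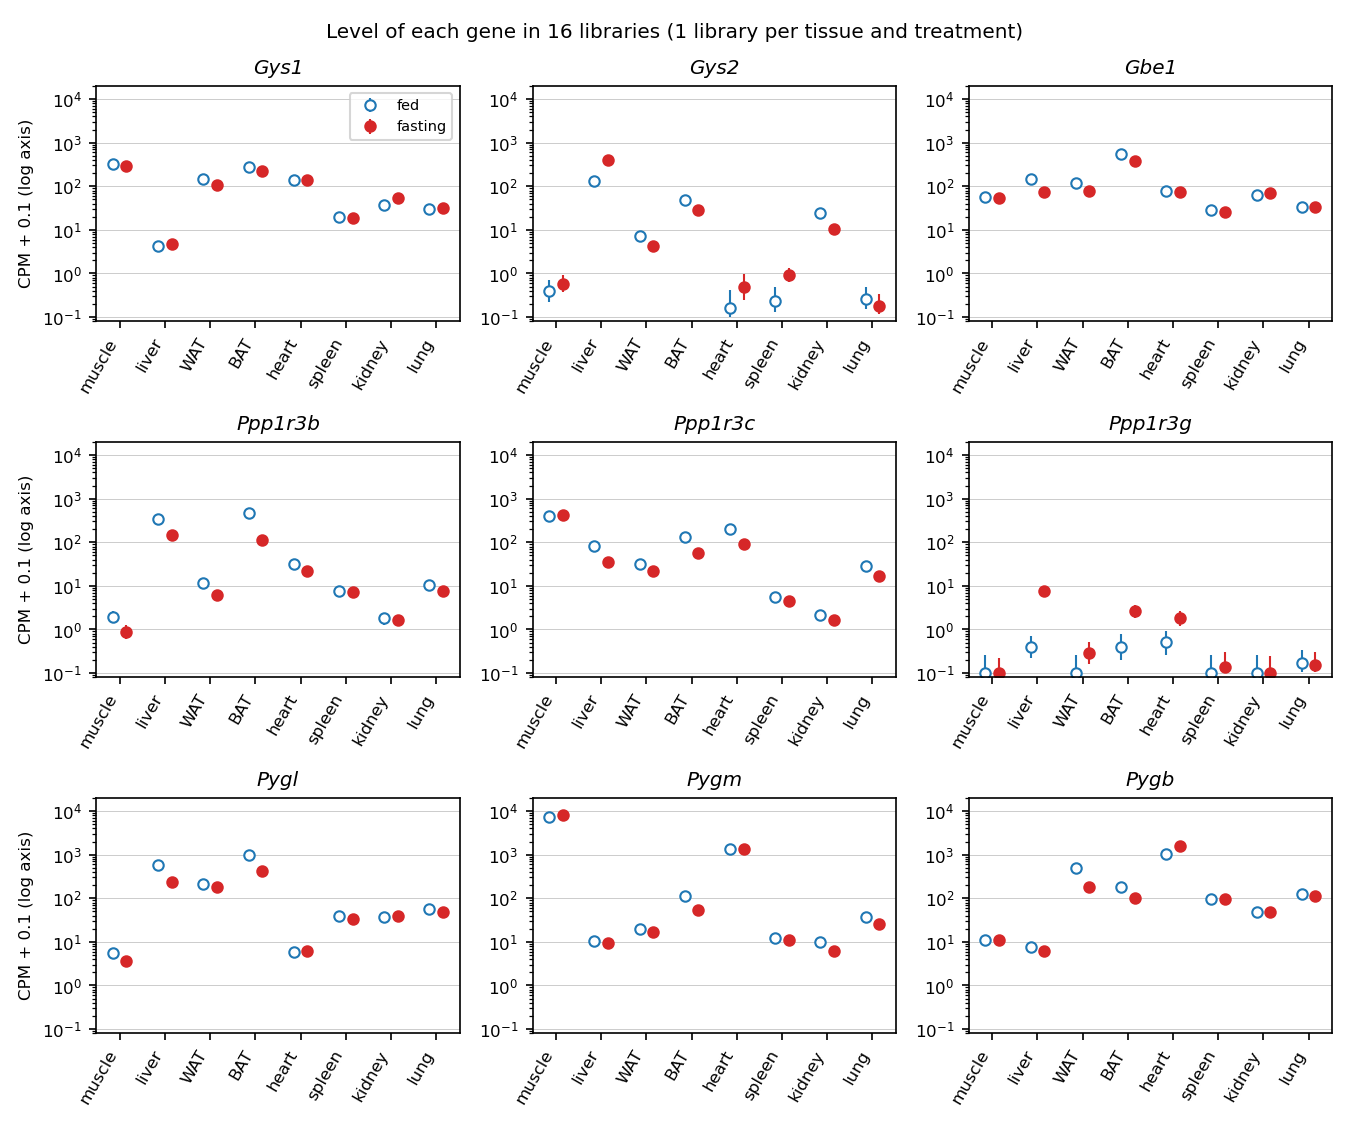
Level of each of the 9 genes in the 16 libraries, as CPM + 0.1 on a log axis, by tissue; open blue points are fed and filled red points fasting libraries, each 1 pool of 3 mice, and bars are 95% intervals for counting error only. Gys2 in liver and Ppp1r3g in liver, BAT and heart lie higher in the fasting library, whereas Ppp1r3b, Ppp1r3c and Pygl lie lower in fasting liver and BAT.

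The first question was which of the 9 genes differed between the fasting and fed library of a tissue, by the rule of the study: a log2 fold change of CPM + 0.01 above 0.5 in size and an unadjusted p under 0.01 in a two-sided Fisher's exact test on the counts. This test compares the 2 libraries of a tissue, not the conditions, because it sees counting error alone. Of the 72 gene and tissue pairs, 7 were higher in fasting, 25 were lower, 38 were not called and 2 had no counts. Where the pools were assumed to vary by a coefficient of variation of 0.2, an exact test in edgeR kept 14 of the 32 calls: Gys2 in liver, spleen and kidney, Ppp1r3b in liver and BAT, Ppp1r3c in liver, BAT and heart, Ppp1r3g in liver, BAT and heart, Pygl in liver and BAT, and Pygb in WAT. The other 18, among them each call of Gys1, Gbe1 and Pygm, were lost, and with 0.4 Ppp1r3g in liver and BAT were the 2 that stayed. Of all genes with a count, 4.46% were called higher and 9.52% lower in liver, 5.39% and 7.58% in BAT, 13.2% and 5.84% in WAT, 4.33% and 5.80% in heart, 4.42% and 9.39% in muscle, 2.77% and 3.93% in kidney, 2.68% and 6.49% in lung, and 2.31% and 1.62% in spleen.

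BAT held the most calls, with 7 of the 9 genes lower (Gys2, Gbe1, Ppp1r3b, Ppp1r3c, Pygl, Pygm and Pygb) and Ppp1r3g higher. In BAT the 9 genes had a median log2 fold change of -0.83, against -0.03 for all genes at 1 CPM or more. In WAT 6 were lower (both synthases, Gbe1, Ppp1r3b, Ppp1r3c and Pygb) and none higher, with a median of -0.52 against 0.07 for all genes. The part of the fast muscle list in the BAT values was not tested. In WAT the kidney tubule list other than Lrp2 and the B cell list other than Ighm summed to 1.15 and 0.825 times their fed level in fasting, and their part was not tested. In liver Gbe1, Ppp1r3b, Ppp1r3c and Pygl were lower while Gys2 and Ppp1r3g were higher, so that 6 of 9 were called; the median was -0.30 against -0.13. Heart had 2 genes higher (Ppp1r3g and Pygb) and 2 lower (Ppp1r3b and Ppp1r3c), and kidney had Gys1 higher and Gys2 and Pygm lower. Muscle had 2 lower (Ppp1r3b and Pygl), lung 2 lower (Ppp1r3c and Pygm), and spleen 1 higher (Gys2). In muscle the members with the highest levels there, Pygm, Ppp1r3c and Gys1, were not called. The medians were -0.03 against -0.14 in muscle and -0.01 against -0.07 in heart, where the members lay above all genes. They were -0.06 against -0.02 in spleen, -0.10 against -0.06 in kidney and -0.23 against -0.09 in lung.

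**Figure D2:**
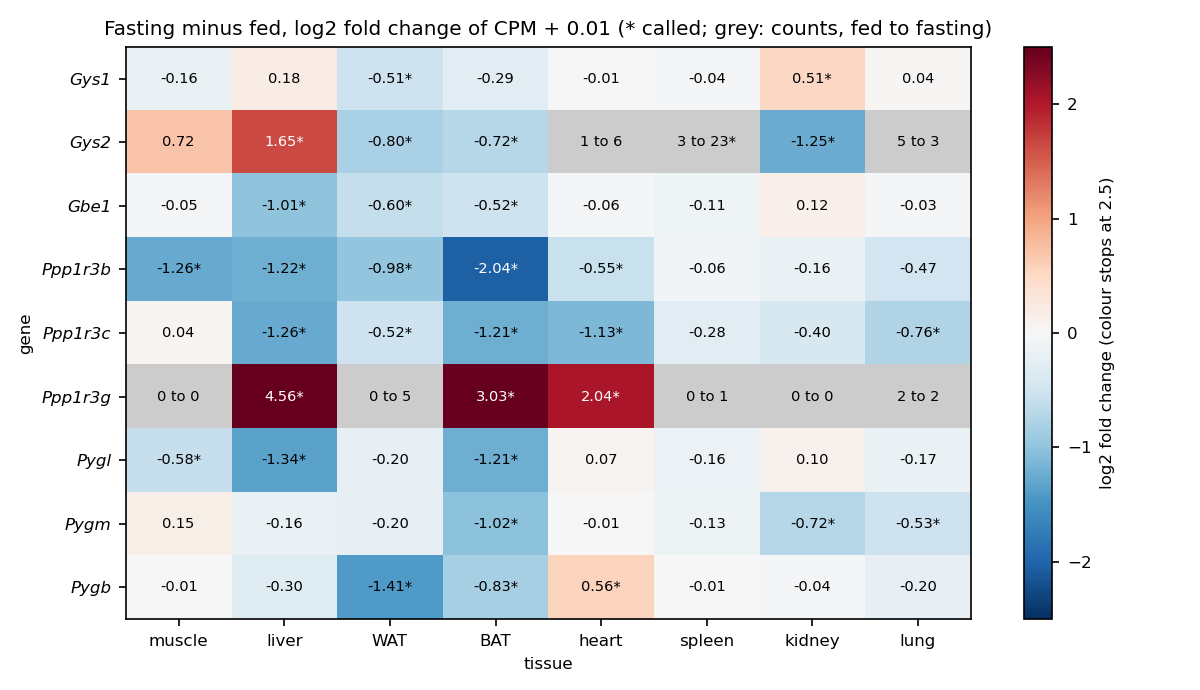
Log2 fold change of CPM + 0.01, fasting minus fed, for each gene (rows) and tissue (columns), with colour from blue (lower in fasting) to red (higher) and an asterisk for a call. Grey cells give the counts of the fed and fasting libraries where either had 3 counts or fewer; the row of Ppp1r3b is blue in every tissue, from -0.06 in spleen to -2.04 in BAT.

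Gys2, the liver form of glycogen synthase (ENSMUSG00000030244.7, chr6:142422613-142473109, minus strand), was at 130.2 CPM in the fed and 408 CPM in the fasting liver library, from 2998 and 10194 counts. This was a 3.14-fold higher level, with an exact 95% counting interval of 3.01 to 3.27. The hepatocyte list summed to 110186 CPM fed and 108217 CPM fasting in the same libraries. The acinar list was higher in fasting liver, at 105 and 229 CPM with 7 of 8 higher, and its part in the Gys2 value was not tested. Of the adipocyte list, Cidec went from 5.17 to 102 CPM there and the other 7 genes summed to 52.1 and 69.7 CPM. Outside liver, the 3 other tissues with more than 1 CPM of Gys2 went the other way. It was at 47.8 CPM in fed and 29.1 CPM in fasting BAT, 24.6 and 10.4 CPM in kidney, and 7.13 and 4.08 CPM in WAT. The kidney level was 2.38-fold lower (2.05 to 2.76), the WAT level 1.75-fold lower (1.37 to 2.24) and the BAT level 1.65-fold lower (1.46 to 1.86). In spleen Gys2 had 3 counts fed and 23 fasting, a ratio of 6.24 with a counting interval of 1.88 to 32.5, which was called although both levels were under 1 CPM. The erythroid list (6 genes) summed to 3825 and 9264 CPM in the same spleen libraries, beside the lower acinar list, and their part was not tested. In kidney 6 of 7 hepatocyte markers were lower in fasting, with Cps1 at 0 and sums of 155 and 78.6 CPM for the 6, while Apob went from 1106 to 1561 CPM, and their part in the kidney value was not tested. Muscle (7 and 15 counts), heart (1 and 6) and lung (5 and 3) were not called. In the order of levels, liver, BAT, kidney and WAT had ranges of the fed and fasting values that did not overlap, whereas spleen, muscle, heart and lung overlapped with their neighbours.

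Gys1, the muscle form (ENSMUSG00000003865.16, chr7:45434844-45456619, plus strand), was highest in muscle, at 327 CPM fed and 292 CPM fasting. It stood at 278 and 228 CPM in BAT, 137 and 136 CPM in heart, 148 and 104 CPM in WAT, 37.5 and 53.5 CPM in kidney, 30.5 and 31.4 CPM in lung, 19.2 and 18.7 CPM in spleen, and 4.21 and 4.77 CPM in liver. Heart and WAT overlapped in this order and no other neighbours did. The call in WAT was for a level 1.42-fold lower in fasting (1.35 to 1.496), and the call in kidney for a level 1.43-fold higher (1.31 to 1.56). Both lay close to the threshold, with log2 fold changes of -0.51 and 0.51. Gys1 shares 310 bases of exon, 6.47% of its exonic length, with Ruvbl2 on the opposite strand, and the strand setting of the counting is not given in the sources used here. No other of the 9 genes overlaps an exon of another gene.

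Gbe1 (ENSMUSG00000022707.16, chr16:70313949-70569716, plus strand), which sets the branches that make glycogen compact, was highest in BAT in both states. Its level was 544 CPM in fed and 379 CPM in fasting BAT, 145 and 72.5 CPM in liver, and 117 and 77.4 CPM in WAT. Each of these 3 was called lower in fasting, 2.01-fold in liver (1.90 to 2.13), 1.51-fold in WAT (1.43 to 1.602) and 1.43-fold in BAT (1.39 to 1.48). The other 5 tissues lay between 26.3 and 77.5 CPM with log2 fold changes from -0.11 to 0.12, none of them called. Liver overlapped with WAT and WAT with heart in the order of tissues.

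Ppp1r3b (ENSMUSG00000046794.9, chr8:35375739-35388139, plus strand) encodes the targeting subunit best known from liver. It was at 469 CPM in fed and 114 CPM in fasting BAT, a level 4.10-fold lower (3.89 to 4.33), and at 348 and 149 CPM in liver, 2.33-fold lower (2.25 to 2.43). Heart had 32.2 and 22.0 CPM, WAT 11.7 and 5.94 CPM and muscle 1.87 and 0.776 CPM, the last from 45 and 24 counts, and all 3 were called lower, although the heart call was lost with TMM scaling. The muscle values stood beside a hepatocyte list that was lower in fasting muscle in 7 of 7 genes (112 and 83.6 CPM), whose part was not tested. In lung the values were 10.5 and 7.57 CPM, with a log2 fold change of -0.47 that did not pass the fold threshold. Spleen (7.42 and 7.11 CPM) and kidney (1.69 and 1.51 CPM) differed by less than their counting intervals. The BAT and liver ranges overlapped, and BAT was the highest tissue by CPM but liver the highest after TMM scaling.

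Ppp1r3c (ENSMUSG00000067279.3, chr19:36731731-36736653, minus strand), which encodes the subunit known as protein targeting to glycogen, was highest in muscle, where the levels of 401 CPM fed and 413 CPM fasting were not called. It was lower in the fasting library of 5 other tissues. The values were 84.3 and 35.3 CPM in liver, 134 and 57.6 CPM in BAT, 199.7 and 91.4 CPM in heart, 27.7 and 16.4 CPM in lung, and 31.2 and 21.7 CPM in WAT. The folds were 2.39 in liver (2.21 to 2.59), 2.32 in BAT (2.14 to 2.52), 2.18 in heart (2.05 to 2.33), 1.69 in lung (1.52 to 1.88) and 1.44 in WAT (1.29 to 1.61). Spleen (5.39 and 4.42 CPM) and kidney (2.005 and 1.51 CPM) were not called. Heart overlapped with BAT, BAT with liver, and WAT with lung. In lung, 6 of 7 cardiomyocyte and 5 of 5 B cell markers were also lower in fasting, and their part in the lung value was not tested.

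Ppp1r3g (ENSMUSG00000050423.11, chr13:35958839-35970388, plus strand) was the member with the fewest counts, 276 over all 16 libraries, and the only subunit of the 3 that was higher in fasting. In liver it had 7 counts fed (0.304 CPM) and 185 fasting (7.41 CPM), a 24.4-fold higher level with a counting interval of 11.6 to 61.5. BAT had 5 counts fed and 36 fasting, 8.39-fold higher (3.28 to 27.4), and heart had 7 and 26, 4.19-fold higher (1.77 to 11.4). WAT had 0 counts fed and 5 fasting, a ratio whose exact counting interval starts at 0.778, and it was not called. Lung had 2 counts in each library, spleen 0 and 1, and muscle and kidney had none in either library, for which the exact 95% intervals end at 0.153 and 0.119 CPM in the fed and fasting muscle and 0.164 and 0.143 CPM in the kidney libraries. Heart Ppp1r3g stood beside the higher hepatocyte list of the fasting heart library, and liver Ppp1r3g beside the higher acinar list, whose part was not tested.

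Pygl (ENSMUSG00000021069.17, chr12:70190811-70231488, minus strand), the liver phosphorylase, was at 591 CPM in fed and 234 CPM in fasting liver, 2.53-fold lower (2.45 to 2.61). It was higher still in BAT, at 986 CPM fed and 425 CPM fasting, 2.32-fold lower (2.25 to 2.39). WAT, the third tissue by level, had 209 and 181 CPM and was not called. Muscle had the lowest level, 5.32 and 3.56 CPM from 128 and 110 counts, and was called lower with a log2 fold change of -0.58, a call lost with TMM scaling. In the same muscle libraries the hepatocyte list was lower, as given for Ppp1r3b, and the macrophage list went from 84.1 to 75.5 CPM (6 of 6 lower). The adipocyte list went from 235 to 213 CPM with 6 of 8 genes lower, among them Cfd (56.4 to 28.5 CPM). Fabp4 (110 to 132 CPM) and Lipe (22.9 to 30.8 CPM) were higher. The part of these lists in the Pygl value was not tested. Lung, kidney, spleen and heart ranged from 5.81 to 55.4 CPM with log2 fold changes from -0.17 to 0.10 and no call. The liver range overlapped with that of BAT, and kidney with spleen.

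Pygm (ENSMUSG00000032648.14, chr19:6384399-6398459, plus strand), the muscle phosphorylase, was at 7426 CPM in fed and 8237 CPM in fasting muscle, the highest level of any of the 9 genes. Heart followed with 1328 and 1322 CPM. Neither tissue was called, and the log2 fold changes were 0.15 and -0.01. In BAT Pygm was at 112 CPM fed and 55.1 CPM fasting, 2.02-fold lower (1.86 to 2.204). The fast skeletal muscle list was 2.23-fold lower in the same library, with all 10 genes lower and none at 0, and its part in the Pygm value was not tested. In lung Pygm was at 36.5 and 25.4 CPM, 1.44-fold lower (1.32 to 1.57), a call lost with TMM scaling, beside the cardiomyocyte list that was 1.92-fold lower. In kidney it was at 9.85 and 5.97 CPM, 1.65-fold lower (1.34 to 2.04), and the fast muscle list there summed to 13.5 and 9.82 CPM with Myh2 and Tnni2 at 0 in fasting. The part of these markers in the lung and kidney values was not tested either. WAT, spleen and liver lay between 9.45 and 19.5 CPM with no call.

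Pygb (ENSMUSG00000033059.7, chr2:150786735-150831758, plus strand), the brain form, was highest in heart and was the phosphorylase that was higher there in fasting, at 1052 CPM fed and 1547 CPM fasting, 1.47-fold higher (1.443 to 1.4999). In WAT it was at 488 and 183 CPM, 2.66-fold lower (2.58 to 2.75), and in BAT at 178 and 99.8 CPM, 1.78-fold lower (1.67 to 1.90). Lung had 127 and 110.1 CPM, spleen 96.1 and 95.5 CPM, kidney 48.5 and 47.3 CPM, muscle 11.1 and 11.0 CPM and liver 7.42 and 6.01 CPM, and none of these was called. BAT overlapped with lung in the order of tissues. The heart value stood beside the higher hepatocyte list, whose part was not tested.

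Levels of different genes were compared per length, as TPM, in which counts are divided by the deposited exonic lengths and then scaled to the same sum in each library. Each gene has the same length in every library, so TPM does not follow which transcript forms a tissue makes. In fed liver Pygl was the highest member at 203 TPM, followed by Ppp1r3b at 133 TPM and Gys2 at 116 TPM. In fasting liver Gys2 came first at 386 TPM, with Pygl at 85.0 TPM and Ppp1r3b at 60.1 TPM. The summed phosphorylases were 215 TPM and the summed synthases 118 TPM in fed liver, a ratio of 1.81, and 95.5 and 388 TPM in fasting liver, a ratio of 0.246. Fasting liver was the 1 library of the 16 with a ratio below 1. It was 33.8 fed and 41.9 fasting in muscle, 22.1 and 25.7 in heart, 7.19 and 6.69 in spleen, 7.11 and 5.76 in lung, 4.09 and 2.99 in WAT, 2.82 and 1.70 in BAT and 1.08 and 1.15 in kidney. These ratios are of mRNA, depend on the lengths used and have no replicate error.

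**Figure D3:**
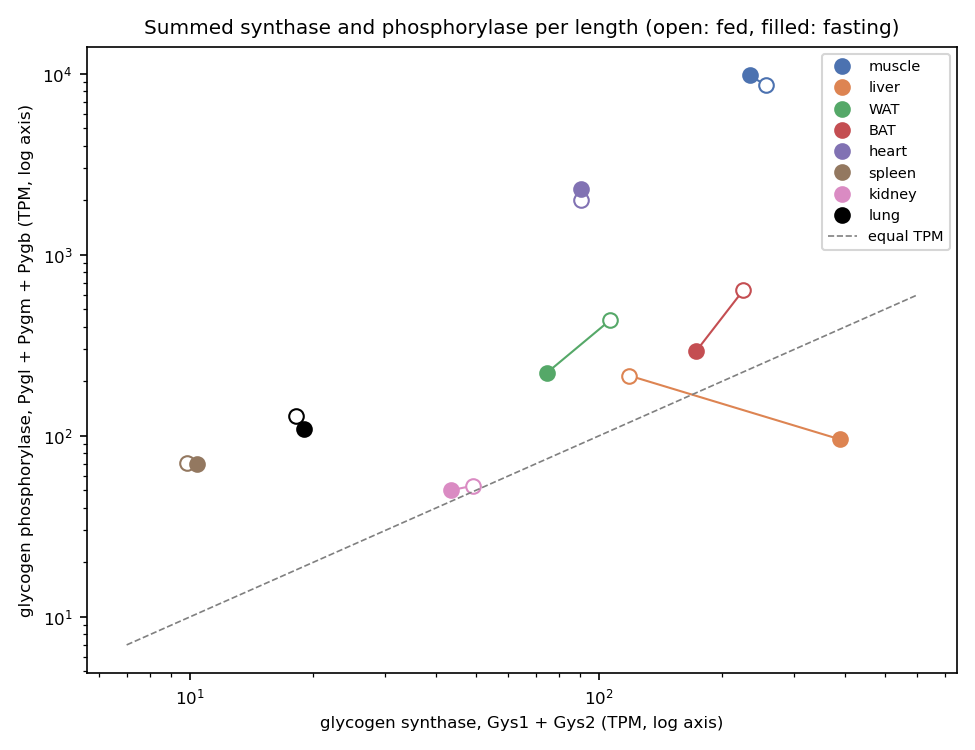
Summed TPM of the glycogen synthases Gys1 and Gys2 (x, log axis) against summed TPM of the phosphorylases Pygl, Pygm and Pygb (y, log axis), with the fed (open) and fasting (filled) library of a tissue joined by a line. Fasting liver, at 388 and 95.5 TPM, lies below the dashed line of equal TPM, and the other libraries lie above it.

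The form that made up most of each enzyme differed between tissues. Gys2 was 98.2% of synthase TPM in fed and 99.4% in fasting liver. In kidney it went from 54.2% fed (exact 95% interval 51.5 to 56.9) to 25.9% fasting (23.4 to 28.5). By CPM Gys1 was above Gys2 in both kidney libraries, at 37.5 against 24.6 CPM fed and 53.5 against 10.4 CPM fasting. Which form was larger in fed kidney thus depended on the lengths. Gys2 was 23.7% and 18.7% in BAT and 7.97% and 6.59% in WAT, 1.23% and 7.38% in spleen, and under 1% in both libraries of muscle, heart and lung. Pygm was 99.9% of phosphorylase TPM in both muscle libraries, and Pygl was 94.7% in fed and 89.0% in fasting liver. Heart held Pygm at 65.3% and Pygb at 34.6% fed, and 56.0% and 43.9% fasting. By CPM, however, Pygb was above Pygm in fasting heart, at 1547 against 1322 CPM. Per length WAT held mostly Pygb, at 73.6% fed and 54.7% fasting, but Pygb and Pygl were at 183 and 181 CPM in fasting WAT. BAT held mostly Pygl, at 66.6% and 62.0%. Pygb was also the largest form in spleen, kidney and lung, at 54.8% to 70.4%.

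Among the 7 Ppp1r3 subunits measured, Ppp1r3b was the largest in liver, at 62.9% of their TPM fed and 57.9% fasting, and in fed BAT at 51.3%. In fasting BAT Ppp1r3b was 35.1% and Ppp1r3c 40.4%, although by CPM Ppp1r3b was the higher there, at 114 against 57.6 CPM. Ppp1r3g was 0.127% in fed and 6.65% in fasting liver. In heart Ppp1r3c went from 52.2% to 29.8% and Ppp1r3a, the striated muscle subunit, from 38.2% to 59.5%. Muscle held Ppp1r3c and Ppp1r3a in near equal parts, with Ppp1r3c at 50.5% fed and 46.7% fasting. Ppp1r3e was the largest in kidney, at 51.6% fed and 48.6% fasting.

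**Figure D4:**
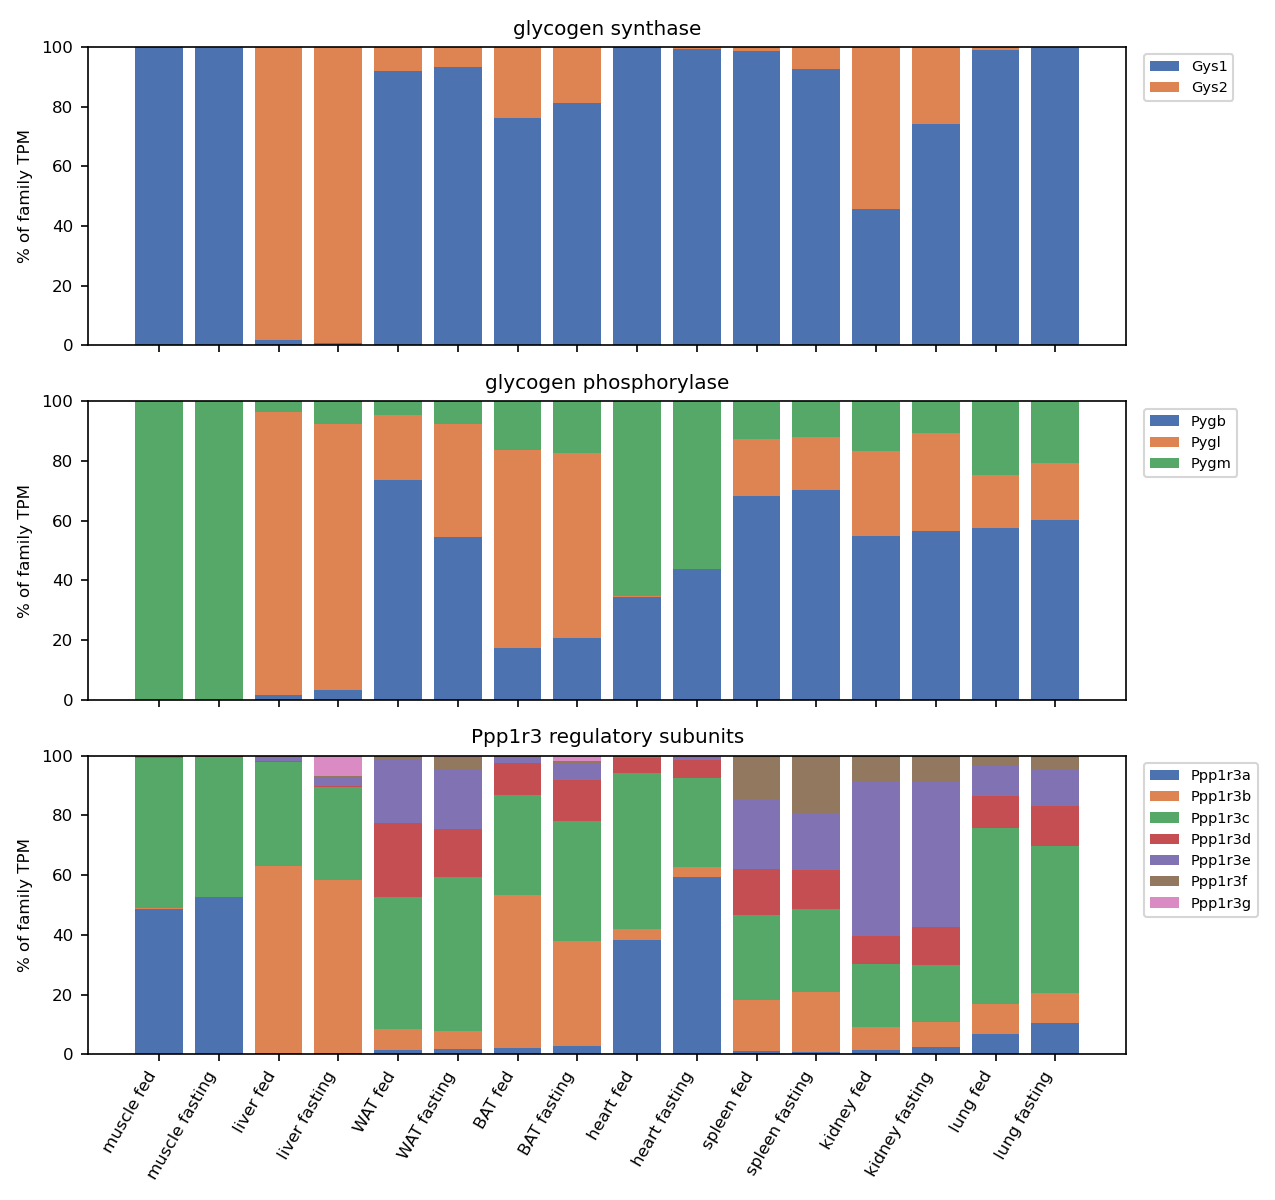
Share of each gene in the summed TPM of its family (%), for glycogen synthase, glycogen phosphorylase and the Ppp1r3 subunits, in the 16 libraries. Gys2 fills the liver bars and falls from 54.2% to 25.9% in kidney, and Pygm fills the muscle bars at 99.9%.

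Whether fasting changed a gene across the 8 tissues was tested with edgeR's quasi-likelihood test on the 16 libraries with tissue as a block, where the tissues take the place of replicates although they share their mice. Of 17296 genes tested, 2.31% were higher and 2.08% lower in fasting at a Benjamini-Hochberg adjusted p under 0.05. Of the 8 members tested, 2 were lower and 0 higher, and 3 had an unadjusted p under 0.05, as did 23.8% of all genes. Ppp1r3b fell by 0.84 on the log2 scale (SE 0.21, edgeR adjusted p = 0.0490), with fasting values lower in 8 of 8 tissues. Ppp1r3c fell by 0.68 (SE 0.15, edgeR adjusted p = 0.0373), with fasting values lower in 7 of 8 tissues. Both stood close to the threshold. Without 1 tissue at a time, the edgeR adjusted p of Ppp1r3b was 0.102 without muscle, 0.0899 without liver, 0.0791 without WAT, 0.0867 without BAT, 0.0952 without heart, 0.0379 without spleen, 0.0627 without kidney and 0.0734 without lung. That of Ppp1r3c was 0.0291 without muscle, 0.0670 without liver, 0.0553 without WAT, 0.0990 without BAT, 0.0982 without heart, 0.0405 without spleen, 0.0580 without kidney and 0.0761 without lung. The estimates themselves ranged from -0.95 to -0.63 for Ppp1r3b and from -0.82 to -0.59 for Ppp1r3c over these 8 fits.

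The other 6 members tested did not pass. The log2 fold change across tissues was -0.41 for Pygl (SE 0.17, edgeR adjusted p = 0.174), -0.28 for Pygm (SE 0.15, adjusted p = 0.269), -0.24 for Gbe1 (SE 0.12, adjusted p = 0.266) and -0.24 for Pygb (SE 0.20, adjusted p = 0.497). Gys1 was at 0.00 (SE 0.11) and Gys2 at -0.01 with an SE of 0.44, the widest of the 8. Ppp1r3g did not pass the filter on low counts by treatment and was not tested across tissues.

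**Figure D5:**
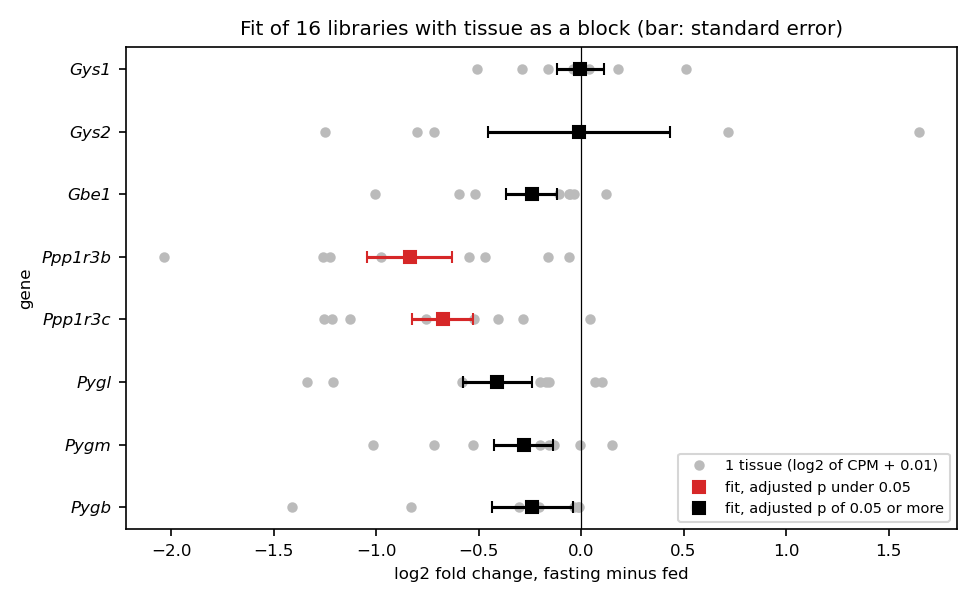
Log2 fold change, fasting minus fed, of the 8 members tested: squares are the edgeR estimates over 16 libraries with tissue as a block, bars their standard errors, and grey points the values of single tissues with more than 3 counts in both libraries. The red squares of Ppp1r3b at -0.84 and Ppp1r3c at -0.68 passed an adjusted p of 0.05.

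Whether the response of 1 tissue differed from that of the other 7 was tested by adding a term for that tissue to the fit. None of the 64 tests of members passed an edgeR adjusted p of 0.05, and 7 had an unadjusted p under 0.05, where 5.77% of the tests of all genes over the 8 terms did. Of all genes, 0.0405% were called higher and 0.0116% lower in the muscle term, 0.185% and 0.11% in liver, 3.31% and 0.515% in WAT, 0.0% and 0.00578% in BAT, and 0.0% in both directions in heart, spleen, kidney and lung. The lowest adjusted p was that of Pygb in WAT, with a difference of -1.46 on the log2 scale (SE 0.39, edgeR adjusted p = 0.0793; 0.0192 to 0.1096 over 3 alternatives, the lowest from DESeq2). Gys2 in liver differed by 2.30 (SE 0.71, edgeR adjusted p = 0.296), and Ppp1r3b in BAT by -1.39 (SE 0.39, adjusted p = 0.556). In simulated counts this test recovered 0 of 200 genes changed 2-fold in liver and 179 of 200 changed 8-fold.

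Differences in level between tissues used the fed and fasting library of each tissue as 2 samples in the same fit. Liver against muscle gave 4 members higher in liver and 3 lower, where 31.4% and 32.5% of all genes were called. Gys2 was higher by 9.18 on the log2 scale (SE 0.94), Ppp1r3b by 7.30 (SE 0.51), Pygl by 6.23 (SE 0.41) and Gbe1 by 0.67 (SE 0.25, edgeR adjusted p = 0.0343). Pygm was lower in liver by 9.87 (SE 0.41; log2 difference -9.87), Gys1 differed by -6.34 (SE 0.28) and Ppp1r3c by -3.18 (SE 0.31). The edgeR adjusted p-values of these members other than Gbe1 ranged from 1.44e-08 to 8.31e-06. Pygb was not called, at -0.98 (SE 0.41, edgeR adjusted p = 0.0570), although it was with DESeq2 (-1.04, DESeq2 adjusted p = 0.0229).

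Heart against muscle gave 2 members higher in heart and 3 lower, with 20.8% and 20.5% of all genes called. Pygb was higher in heart by 6.16 (SE 0.48) and Ppp1r3b by 3.70 (SE 0.46), while Pygm differed by -3.32 (SE 0.31), Ppp1r3c by -2.37 (SE 0.30) and Gys1 by -1.92 (SE 0.23). Gbe1, Pygl and Gys2 did not pass, with differences of -0.29 (SE 0.25), -0.28 (SE 0.36) and -1.61 (SE 1.57). With library totals in place of TMM factors, Gbe1 and Pygl turned to 0.45 and 0.46 without passing, and the called members moved up as well, such as Gys1 to -1.18 and Pygb to 6.91. BAT against WAT gave 7 of 8 members higher in BAT and 0 lower, where 23.7% of all genes were higher and 25.1% lower. The differences were 5.26 for Ppp1r3b (SE 0.44), 3.13 for Gys2 (SE 0.68), 2.60 for Gbe1 (SE 0.26), 2.51 for Pygm (SE 0.30), 2.15 for Pygl (SE 0.34), 2.14 for Ppp1r3c (SE 0.30) and 1.35 for Gys1 (SE 0.23). Pygb was the exception, at -0.92 (SE 0.39, edgeR adjusted p = 0.0719). The fast skeletal muscle list summed to 205 and 263 CPM in WAT against 2791 and 1249 CPM in BAT, and its part in the Pygm difference was not tested.

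The wider pathway was read from a list of 41 other genes (glycogenin, debranching and lysosomal enzymes, phosphorylase kinase subunits, other Ppp1r3 subunits, hexokinases and their partners, and signalling genes). Of its 328 gene and tissue pairs, 21 were higher in fasting, 30 were lower and 277 were not called. Liver had 4 higher and 4 lower of 41, or 9.76% each against 4.46% and 9.52% of all genes with a count. BAT had 3 and 7 (7.32% and 17.1%, against 5.39% and 7.58%), WAT 7 and 6 (17.1% and 14.6%, against 13.2% and 5.84%), heart 1 and 4 (2.44% and 9.76%, against 4.33% and 5.80%) and muscle 3 and 4 (7.32% and 9.76%, against 4.42% and 9.39%). Lung had 2 and 2 (4.88% each, against 2.68% and 6.49%), kidney 1 and 2 (2.44% and 4.88%, against 2.77% and 3.93%), and spleen 0 and 1 (0% and 2.44%, against 2.31% and 1.62%). Hk2, a hexokinase, was called lower in muscle, WAT, heart and spleen. It was at 490.2 and 209 CPM in heart, 2.34-fold lower, and at 26.3 and 18.2 CPM in spleen. Per length it was at 234 and 162 TPM in muscle and 102 and 41.8 TPM in WAT.

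Stbd1, which binds glycogen to membranes, was lower in fasting muscle (32.0 and 15.6 CPM) and BAT (12.8 and 7.16 CPM) and higher in WAT (8.501 and 23.7 CPM). Pgm3, a phosphoglucomutase of the hexosamine route, was at 22.2 and 54.96 CPM in liver. In BAT the targeting subunits Ppp1r3d (51.9 and 23.7 CPM) and Ppp1r3a (20.7 and 9.83 CPM) were lower too, the latter beside the lower fast muscle list. Gyg, the glycogenin that primes new glycogen, was called in lung only among the 8 tissues, at 97.9 and 54.9 CPM, beside the lower cardiomyocyte and B cell lists of the fasting lung library. The part of the marker lists in these values was not tested. Across tissues 1 of the 40 list genes tested was called, where 2.08% of all genes were called lower, and it was Hk3 with a log2 fold change of -0.51 at an edgeR adjusted p of 0.04995, and in the term for WAT, where 0.515% of all genes were called lower, it was Phka2, a phosphorylase kinase subunit, at -0.94 (SE 0.23, adjusted p = 0.0492). The Hk3 call was lost in each of the 8 fits without 1 tissue (edgeR adjusted p = 0.0539 to 0.114), and the Phka2 call was lost with library totals (edgeR adjusted p = 0.103). The macrophage list was lower in fasting in 6 of 6 genes in muscle, liver, BAT, heart, kidney and lung. It was lower in 4 of 6 in WAT and 3 of 6 in spleen, and its part in the Hk3 value was not tested.

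The genes whose log2(CPM + 1) was most like that of each member over the 16 libraries were ranked by Pearson's r among 14903 genes at 10 CPM or more in a library. Libraries of 1 tissue are not independent, so these values describe the pattern only. Pygm lay closest to Klhl41 (0.995) and Mylk4 (0.992), and Pygl to Cebpa (0.956) and Hsd17b12 (0.946). Gys1 lay closest to Ube3b (0.961) and Bckdk (0.956), Gys2 to Ei24 (0.947) and Sephs2 (0.945), and Gbe1 to Mtch2 (0.961) and March5 (0.934). Pygb lay closest to Strip2 (0.947) and Ablim1 (0.912), Ppp1r3c to Fxyd1 (0.923) and Ckm (0.922), and Ppp1r3b to Zadh2 (0.921) and Nudt7 (0.876). Ppp1r3g had the lowest values, 0.781 with Gm48199 and 0.774 with Fgf21, a hormone of the fasting liver. Between members, r was 0.823 for Ppp1r3c with Pygm, 0.745 for Gys2 with Pygl, 0.704 for Ppp1r3b with Pygl and -0.381 for Gys1 with Gys2.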

How the data were processed

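Strand-specific TruSeq libraries were sequenced in paired 100-base reads. Per the methods, the authors used fastp (0.23.2) for read cleaning, FastQC (0.11.8) for quality control, HISAT2 (2.2.1.0) for alignment on GRCm38 and featureCounts (Subread 2.0) with GENCODE M24 for counting. They deposited raw counts of 55385 genes with exonic lengths. The strand option of the counting, and its unit of reads or pairs, are not given in the sources used here.

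Symbols were taken from a reference table of GENCODE M21, which matched 99.6% of genes. CPM used library totals and TPM the deposited lengths. Within a tissue, the fold change was that of CPM + 0.01 and the test Fisher's exact test, with calls where log2 fold change exceeded 0.5 in size and p was under 0.01. Intervals are exact 95% intervals for counting error only. Across tissues, edgeR (4.0.16; R 4.3.3) was fitted with TMM factors, tissue and treatment, after filterByExpr by treatment (17296 genes, 7 residual degrees of freedom; 6 with a term for 1 tissue). The square root of the common dispersion was 0.196, which also holds differences between tissues in the response to fasting, since no pool was replicated. SE is the log2 fold change over the square root of F. DESeq2 (1.42.0) was an alternative. Fisher's test and edgeR were tested on simulated counts: the fit across tissues recovered 196 of 200 genes changed 2-fold with 6 false calls, and Fisher's test recovered 175 to 191 of 200 per tissue with 48 to 98 false calls. The counts simulated for Fisher's test held counting error alone, so its false calls leave out variation between pools.

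Other genes were named by rule: pathway list genes called across tissues or in the term for 1 tissue, the 2 called list genes with the largest change in each tissue among those at 10 CPM or more, and the 2 genes most like each member; some list genes named by this rule are not reported here. The 9 members, the lists and the tests were chosen with earlier results of these data known. Scaling was also varied: TMM moved the median fasting difference of all genes by 0.13 (log2) in liver and -0.10 in WAT, and by less in the other tissues. The labels name no batch.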

Additional observations from a re-analysis of the deposited data

Results flagged for a closer look

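The 3 genes Gys1, Gys2 and Pygb were called in opposite directions in different tissues, with 1 library per group, so the spread between mice was not measured. The log2 fold change of Gys1 was 0.51 in kidney and -0.51 in WAT. That of Gys2 was 1.65 in liver and 2.55 in spleen, and -0.80 in WAT, -0.72 in BAT and -1.25 in kidney. That of Pygb was 0.56 in heart, and -1.41 in WAT and -0.83 in BAT. In the test of 1 tissue against the other 7, the edgeR adjusted p was 0.272 for Gys1 in WAT, 0.296 for Gys2 in liver, 0.770 for Gys2 in WAT, 0.986 for Gys2 in BAT, 0.0793 for Pygb in WAT and 0.963 for Pygb in BAT, and 1 for Gys1 in kidney, Gys2 in spleen and kidney and Pygb in heart. The difference between any pair of these tissues was not tested.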

How the results depend on the processing

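Within tissues, the 32 calls did not change direction under any of the 9 alternatives. With TMM factors 29 were kept (lost: Ppp1r3b in heart, Pygl in muscle and Pygm in lung), with DESeq2 size factors 30, with a pseudocount of 1 CPM 31, and with at least 1 CPM in 1 library 31 (lost: Gys2 in spleen). No call was lost without the 10 highest genes in the total or with adjusted p-values. Above a log2 fold change of 1, 5 were higher and 12 lower. Where the pools were taken to vary by a coefficient of 0.2, 5 were higher and 9 lower, and with 0.4, 2 were higher (Ppp1r3g in liver and BAT) and 0 lower. Across tissues, members lower in fasting numbered 1 with DESeq2 size factors in edgeR, 1 with robust quasi-likelihood, 1 with the filter by 2 libraries (added after seeing the data), 0 without the tissue block, and from 0 to 2 when 1 tissue was left out; 1 was higher (Ppp1r3g) without a filter and with the filter by 2 libraries, which it passed through fasting libraries alone, so that this call supports nothing. The adjusted p over all alternatives ran from 0.00449 to 1 for Ppp1r3b and from 0.00162 to 1 for Ppp1r3c, the highest without the tissue block. The Hk3 call across tissues was also lost with DESeq2 size factors in edgeR, robust quasi-likelihood, no filter, no tissue block and the filter by 2 libraries. With DESeq2, 2 genes of the pathway list were higher and 1 lower across tissues, where 4.98% and 5.84% of all genes were called. In the WAT term DESeq2 called 1 list gene higher and 4 lower, against 4.37% and 1.29% of all genes. With library totals that term called 1 higher and 0 lower, against 3.96% and 0.312%. BAT against WAT gave 1 lower (Pygb) with DESeq2 and with library totals, and the terms for single tissues gave 1 call (Pygb in WAT) with DESeq2. With TMM factors 8 of 9 members kept their highest tissue. The cause of these changes was not tested. The tissue block pairs the fed and fasting library of each tissue, and no replicate block could be fitted because each tissue and treatment has 1 library. At totals of 14245178 to 36069968 counts, Gys2 outside 4 tissues and Ppp1r3g outside 3 had few counts, so their folds there had wide counting intervals or none.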
